A study of Rattus norvegicus with 20 samples.

Results

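Rosiglitazone-treated rats were compared with lean control rats in the red part of the tibialis anterior, a hindlimb muscle rich in oxidative fibres. The comparison took 10 of the 20 arrays of the series, the 5 labelled rosiglitazone and the 5 labelled lean control. It ran over 14557 genes that had at least 1 array row carrying a single gene symbol. The labels call the animals male ZDF (Zucker diabetic fatty) rats with the strain tag Zucker, whereas the study's text sets the lean controls apart from its ZDF rats. They were kept in individual cages under a reversed light cycle with free access to food and water. The lean controls ate a standard chow, and the obese rats a stock diet for 6 weeks. The labels give neither the genotype, the diet nor the age of the rosiglitazone rats, and neither the dose nor the length of treatment, so drug, obesity and diet cannot be told apart here. The 5 untreated obese rats and the 5 resveratrol rats entered only the estimate of the spread and the values set side by side.

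Rosiglitazone is a thiazolidinedione, an agonist of the nuclear receptor PPAR gamma. The receptor pairs with RXR and turns on genes for taking up, making and storing fat, above all in adipocytes, and it is also active in capillary endothelium. ZDF rats that lack a working leptin receptor become obese and then diabetic, whereas lean littermates do not. In skeletal muscle, fatty acids reach the fibre through the capillary wall, are oxidised in mitochondria or stored as droplets, and the fibres are wrapped in a collagen-rich matrix made by fibroblasts.

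Values are log2 expression values as deposited, made by the authors with RMA, so that a difference of 1 is a doubling. The array medians lay between 2.49 and 2.53 in the rosiglitazone group and between 2.46 and 2.5 in the lean control group, and values near these medians lie close to the level of genes that are not expressed. Array pairs within a group correlated at 0.982 to 0.985 for rosiglitazone and 0.982 to 0.987 for lean control, across genes. The mean of the skeletal muscle markers lay at 10.1 to 10.3 in both groups, and none of its 9 measured members was called. In a principal component analysis of these 10 arrays, the leading component (40.8% of variance) ran at 5.06 to 12.7 for rosiglitazone and at -15.1 to -3.48 for lean control. On the next component, rosiglitazone array 2 stood alone at 14.5. The labels call the arrays biological replicates and name no batch.

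In total, 510 genes were called in rosiglitazone against lean control, 3.5% of those tested (limma, adjusted p under 0.05). Of these, 243 were higher, 1.67% of all genes, and 267 were lower, 1.83%. Higher genes moved further: 57 of them rose at least 2-fold, against 29 lower genes that fell as much. The arrays of the 2 groups did not overlap for 391 of the called genes, whereas 5.04% of all genes showed no overlap. At an unadjusted p under 0.05 there were 2312 genes, where 728 would be expected by chance. Without lean control array 1 the count was 325, with 152 lower, and 247 genes were called in every fit that left out 1 of the 10 arrays. The count of lower genes was 176 without rosiglitazone array 3 and 174 without lean control array 5. In whole muscle, fewer cells of a type and less RNA per cell cannot be told apart.

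**Figure D1:**
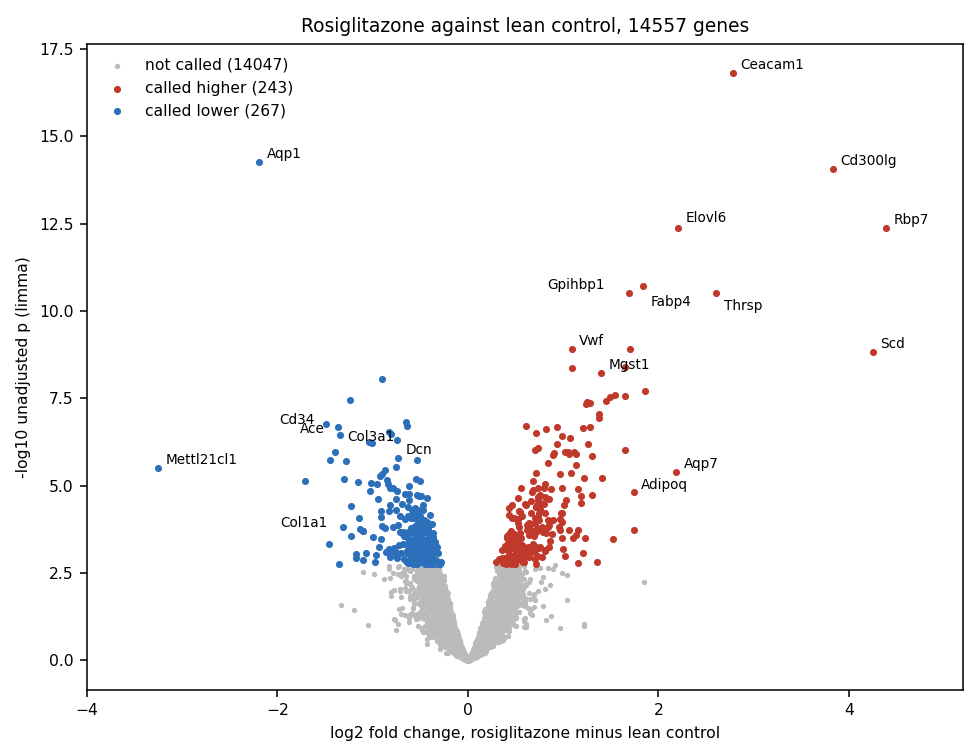
Each point is 1 of 14557 genes, with the log2 fold change (rosiglitazone minus lean control) on the horizontal axis and -log10 of the unadjusted limma p on the vertical axis. The 243 genes called higher are red and the 267 called lower are blue; Rbp7, Scd and Cd300lg lie furthest to the right, and Mettl21cl1 and Aqp1 furthest to the left.

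The genes that rose most were a retinol carrier, a desaturase and a capillary surface receptor. Rbp7, a cellular retinol-binding protein found in fat and capillary endothelium, read 8.65, 9.07, 8.44, 8.56 and 8.58 on the rosiglitazone arrays, against 3.69, 4.35, 4.78, 4.48 and 4.07 on the lean control arrays. The groups lay far apart, and the log2 fold change was 4.38 (SE 0.29, limma adjusted p = 1.26e-09), a 20.9-fold rise. Cd300lg, a receptor of capillary and venular endothelium, read 6.66, 6.89, 6.53, 6.37 and 6.62 in rosiglitazone muscle, against 2.82, 3.13, 3.08, 2.72 and 2.14 in lean control muscle. It rose by 3.83 (SE 0.21, limma adjusted p = 4.17e-11). Its lean values lay close to the array medians, so that its fold is less certain than its direction. Ceacam1, an adhesion molecule of epithelium and endothelium, had the smallest p of all genes. It read 5.54, 5.63, 5.71, 5.49 and 5.53 with rosiglitazone, against 2.52, 2.85, 2.82, 2.83 and 2.98 in lean controls, a difference of 2.78 (SE 0.11, limma adjusted p = 2.3e-13). For all 3 genes no array lay near those of the other group. The lean values of Ceacam1, too, lay close to the array medians, so that its fold is less certain than its direction.

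The stretch just before an annotated start is shown for 4 genes, because they lead the higher genes, the lipid synthesis genes and the lower genes. The 250 bases are those of RefSeq on the rat assembly GRCr8, read 5′ to 3′ on the strand of the gene, and end at the start that the RefSeq table gives each gene. The transcript behind that start is not named, and the annotated spans of Scd and Rbp7 begin further upstream, so that the whole Scd window and the last bases of the Rbp7 window lie within them. Capitals mark matches, on either strand, to a TATA box (TATAAA, in 12.2% of 11787 such windows), a CCAAT box (35.2%) or a GC box (GGGCGG, 43.6%).
Rbp7, chr5:165177400-165177649, minus strand: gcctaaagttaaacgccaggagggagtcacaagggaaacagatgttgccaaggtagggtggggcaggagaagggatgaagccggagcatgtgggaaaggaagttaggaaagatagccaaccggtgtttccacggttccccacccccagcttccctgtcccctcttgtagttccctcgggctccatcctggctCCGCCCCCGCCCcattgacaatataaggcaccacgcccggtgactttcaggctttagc
Scd, chr1:253231732-253231981, minus strand: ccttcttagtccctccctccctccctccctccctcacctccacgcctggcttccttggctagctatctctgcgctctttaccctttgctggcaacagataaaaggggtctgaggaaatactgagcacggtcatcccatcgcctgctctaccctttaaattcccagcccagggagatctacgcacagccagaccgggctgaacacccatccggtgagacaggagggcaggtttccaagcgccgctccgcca
Thrsp, chr1:161138965-161139214, minus strand: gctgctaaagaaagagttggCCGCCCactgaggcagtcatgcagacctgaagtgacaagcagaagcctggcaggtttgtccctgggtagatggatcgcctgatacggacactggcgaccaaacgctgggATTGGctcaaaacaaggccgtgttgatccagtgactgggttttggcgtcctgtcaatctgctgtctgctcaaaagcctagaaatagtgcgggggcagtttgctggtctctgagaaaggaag
Aqp1, chr4:85812534-85812783, plus strand: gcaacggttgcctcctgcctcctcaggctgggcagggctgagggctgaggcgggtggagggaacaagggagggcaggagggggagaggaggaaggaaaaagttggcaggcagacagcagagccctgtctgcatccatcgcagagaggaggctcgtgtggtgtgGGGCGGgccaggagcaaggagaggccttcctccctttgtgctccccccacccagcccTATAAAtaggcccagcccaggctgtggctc
Rbp7 held 2 adjacent GC boxes from 58 to 47 bases before the start, and Aqp1 held a TATA box 30 bases and a GC box 87 bases before it. Thrsp held a CCAAT box 121 bases and a GC box 230 bases before it. The Scd window held none of the 3 motifs. The nuclear receptor motif (AGGTCA, 11.9% of windows), the direct repeat of it that PPAR and RXR bind (up to 2 mismatches, 2.69%) and the sterol response element (TCACNCCAC, 0.865%) were searched on both strands as well, and their letters were not in these 4 windows.

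**Figure D2:**
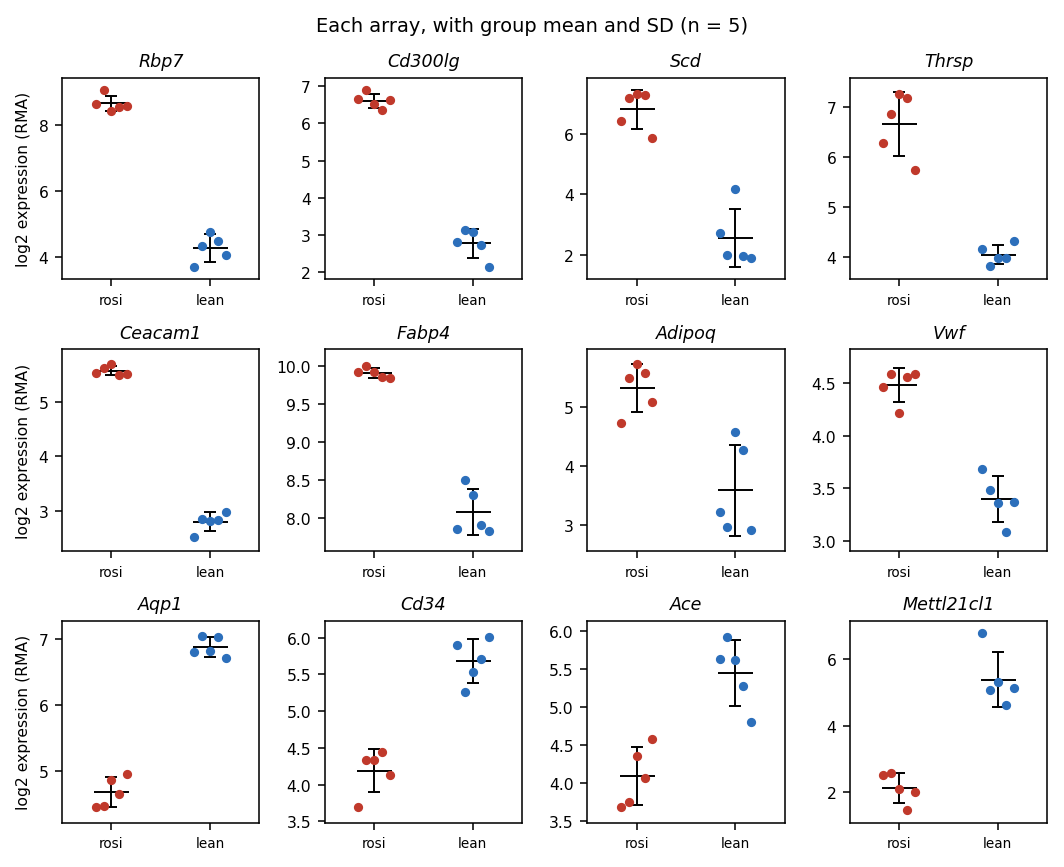
Log2 expression (RMA) of 12 genes on each array, with 5 rosiglitazone arrays (red, left) and 5 lean control arrays (blue, right) and the group mean and SD in black. In every panel the 2 groups do not overlap; 8 genes are higher and 4 (Aqp1, Cd34, Ace, Mettl21cl1) lower with rosiglitazone.

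Scd and Elovl6, which act on saturated fatty acids, rose together with 3 other lipid synthesis genes, while the larger part of the list was not called. Of 17 measured lipid synthesis genes, 5 were called higher (29.4%, against 1.67% of all genes) and none lower, with a median log2 fold change of 0.36, against a median of -0.0029 over all genes. Scd, the desaturase that makes oleate from stearate, read 6.42, 7.18, 7.30, 7.26 and 5.84 with rosiglitazone, against 2.73, 2.0, 4.17, 1.97 and 1.88 in lean controls. Every rosiglitazone array lay above every lean one, and the difference was 4.25 (SE 0.43, limma adjusted p = 1.94e-06). Thrsp, or Spot 14, a nuclear protein that promotes lipid synthesis, read 6.27, 6.86, 7.25, 7.16 and 5.74 with rosiglitazone, against 4.16, 3.83, 3.97, 3.98 and 4.32 in lean controls. It rose by 2.61 (SE 0.22, limma adjusted p = 5.7e-08), and rosiglitazone arrays 1 and 5, the lowest of the group, were also the lowest for Scd. Elovl6, which lengthens palmitate to stearate, averaged 4.48 ± 0.20 with rosiglitazone and 2.27 ± 0.28 in lean controls (SD, n = 5 each), and did not overlap. The remaining calls were Fads3, a desaturase-like enzyme, at 1.26 (SE 0.18) and Srebf1, the transcription factor SREBP-1 of lipid synthesis, at 0.96 (SE 0.21). The rest of the pathway did not pass the test, including Scd2, a close relative of Scd, at 0.53, and the elongases Elovl1 at 0.35, Elovl3 at -0.02 and Elovl5 at 0.11. Acly, which supplies cytosolic acetyl-CoA, stood at 0.36, Me1, the malic enzyme that yields NADPH, at -0.15, and Fads2, the delta-6 desaturase, at -0.71 (limma adjusted p = 0.15, 0.51 and 0.077). Scd and Elovl6 lay near or under the array medians in lean muscle, which leaves the size of their rise uncertain.

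The oxysterol receptor LXR drives Srebf1 and Scd, and 12 further measured genes of its pathway were examined after values had been seen. Of these 12, Abcg1, Nr1h3, Mylip and Lpcat3 were called higher and none lower, against 1.67% and 1.83% of all genes. The list gives no independent evidence of its direction. Abcg1, a cholesterol exporter, read 4.28, 4.47, 4.47, 4.37 and 4.05 in rosiglitazone muscle, against 2.91, 3.51, 3.22, 3.34 and 2.28 in lean controls. The groups did not overlap, and the difference was 1.28 (SE 0.17, limma adjusted p = 9.53e-05). Nr1h3, which encodes LXR alpha, was higher by 0.62 (SE 0.14), and Mylip, the ligase that degrades the LDL receptor, by 0.73 (SE 0.16). Lpcat3, which builds unsaturated fatty acids into phospholipids, stood at 0.39 (limma adjusted p = 0.0405), and lost its call without rosiglitazone array 1, 3 or 5 or lean control array 1, 2, 4 or 5 (0.058 to 0.115). The other 8 were not called and ran from Pltp at -0.02 to Apoe at 0.37. Among them, Abca1, the other main exporter and a classical LXR target, stood at 0.19, and Abcg5 at 0.04. Of 13 genes of cholesterol synthesis and uptake, Insig1 alone was called (7.69%, against 1.67% of all genes higher). Insig1, which holds SREBP in the endoplasmic reticulum, stood at 0.55 (limma adjusted p = 0.0273). Its call was lost when any of rosiglitazone arrays 1, 3 and 4 or lean control arrays 1, 3 and 5 was left out (limma adjusted p from 0.0597 to 0.0854).

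Most adipocyte markers measured rose. Of 15 measured markers, 9 were called higher (60%, against 1.67% of all genes) and none lower, and the median log2 fold change was 0.80. The mean of the 15 lay at 5.33 to 5.82 on the rosiglitazone arrays, against 4.54 to 4.91 on the lean control arrays, with no overlap. Fabp4, the fatty acid carrier of adipocytes and capillary endothelium, read 9.93, 10.01, 9.93, 9.85 and 9.85 in rosiglitazone muscle, against 7.86, 8.50, 8.31, 7.90 and 7.83 in lean controls. It rose by 1.83 (SE 0.15, limma adjusted p = 4.82e-08) and was the brightest called marker. Adipoq, the adipocyte hormone adiponectin, read 4.73, 5.50, 5.73, 5.58 and 5.09 with rosiglitazone, against 3.22, 2.96, 4.58, 4.27 and 2.91 in lean controls. It rose by 1.74 (SE 0.32, limma adjusted p = 0.00227), and the groups did not overlap, although lean control array 3 lay just under rosiglitazone array 1. Aqp7, the glycerol channel, was higher by 2.18 (SE 0.36), Cidec, a lipid droplet protein, by 1.41 (SE 0.24), Trarg1, a regulator of glucose transporter traffic, by 1.28 (SE 0.16), and Plin1, the coat protein of fat droplets, by 0.80 (SE 0.15). Lep, the hormone leptin, rose by 0.85 (SE 0.19) at values of 2.19 to 3.56 with rosiglitazone and 1.66 to 2.13 in lean controls, under the array medians on rosiglitazone arrays 1 and 2 and on all lean control arrays. Cidea, a lipid droplet protein, and Pnpla2, the lipase that starts fat breakdown, were called at 0.81 and 0.80. Cidea lost its call without rosiglitazone array 3, 4 or 5 or lean control array 1 or 3 (limma adjusted p from 0.0543 to 0.0913), and Pnpla2 without any of the arrays other than rosiglitazone array 2 and lean control arrays 2 and 3 (0.053 to 0.0965). The markers Lpl at 0.11, Dgat2 at -0.26, Gpd1 at -0.08, Cfd at 0.39 and Retn at 0.21 did not pass the test. The part of fat cells in the muscle samples was not tested apart from the groups, since the adipocyte marker mean separates the same arrays as the treatment. With it as a covariate, 6 genes were called: the fit leaves little of the group difference to estimate.

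Endothelial markers were called in both directions. Of 13 measured endothelial and pericyte markers, Vwf, Tek and Esam were called higher and Aqp1 and Cd34 lower, against 1.67% and 1.83% of all genes. Cdh5 (VE-cadherin), Tie1 and Emcn stood at -0.07, -0.14 and 0.10 and were not called. Vwf, the clotting glycoprotein of endothelial granules, read 4.46, 4.59, 4.22, 4.56 and 4.59 with rosiglitazone, against 3.69, 3.49, 3.36, 3.08 and 3.37 in lean controls. The difference was 1.09 (SE 0.11, limma adjusted p = 1.83e-06), with no overlap. Tek, the angiopoietin receptor TIE2, was higher by 0.77 (SE 0.17), and so was Esam, a junction protein, by 0.76 (SE 0.19). The call for Esam was lost without rosiglitazone array 1, 3 or 5 or lean control array 1, 4 or 5 (limma adjusted p from 0.0523 to 0.0843). The mean of the list did not separate the groups, at 5.01 to 5.19 in rosiglitazone muscle and 5.08 to 5.28 in lean control muscle.

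Aqp1, the water channel of capillary endothelium and red cells, had the smallest p among the genes that fell. It read 4.45, 4.47, 4.86, 4.65 and 4.96 with rosiglitazone, against 6.80, 7.04, 6.81, 7.02 and 6.71 in lean controls, so that the groups were separated by more than the range of either. The difference was -2.20 (SE 0.12, limma adjusted p = 3.99e-11), 4.58-fold lower with rosiglitazone. Cd34, a sialomucin of capillary endothelium and of muscle progenitor cells, read 3.70, 4.34, 4.34, 4.44 and 4.13 with rosiglitazone, against 5.90, 5.27, 5.53, 5.70 and 6.01 in lean controls, a difference of -1.49 (SE 0.20, limma adjusted p = 8.68e-05). Ace, the angiotensin-converting enzyme of the endothelial surface, read 3.69, 3.76, 4.36, 4.07 and 4.58 with rosiglitazone, against 5.64, 5.92, 5.62, 5.28 and 4.80 in lean controls. Every rosiglitazone array lay under every lean one, with a difference of -1.36 (SE 0.19, limma adjusted p = 9.53e-05).

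A wider set of 52 measured endothelial genes, which includes Rbp7, Cd300lg and Ace, was drawn up after values of several had been seen. Its counts of 21 called higher and 8 lower, against 1.67% and 1.83% of all genes, are therefore a description only. The other 23 were not called and ran from Apln at -0.38 to Efnb2 at 0.44. Gpihbp1, which carries lipoprotein lipase across the capillary wall, read 6.08, 6.36, 6.10, 6.26 and 6.10 in rosiglitazone muscle, against 4.68, 4.71, 4.51, 4.56 and 3.99 in lean controls. It rose by 1.69 (SE 0.14, limma adjusted p = 5.7e-08), with no overlap, while Lpl itself stood at 0.11. Clec1a, a lectin-like receptor, was higher by 1.65 (SE 0.18), Ly6c by 1.49 (SE 0.18), Plat, the tissue plasminogen activator, by 1.21 (SE 0.21), Tinagl1, a matrix protein of vessels, by 1.14 (SE 0.17) and Sox18, a transcription factor of vessel growth, by 0.80 (SE 0.14). Among the lower genes, Nrp1, a co-receptor of VEGF, differed by -0.75 (SE 0.11), Angpt1, the ligand of Tek, by -1.02 (SE 0.18), Aplnr, the apelin receptor, by -0.91 (SE 0.19), and Gimap4, a small GTPase, by -1.01 (SE 0.15). None of these calls was lost on leaving out 1 array.

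The gene that fell most was Mettl21cl1, whose symbol places it beside the methyltransferase Mettl21c. It read 2.5, 2.58, 2.10, 1.45 and 1.99 with rosiglitazone, against 6.78, 5.07, 5.31, 4.61 and 5.13 in lean controls. Every rosiglitazone value lay at or under 2.58, close to or below the array medians, and the lowest lean value was 4.61, with a difference of -3.25 (SE 0.53, limma adjusted p = 0.000693). Nrep, a small protein tied to wound and nerve repair, read 5.30, 6.90, 4.87, 5.61 and 5.41 with rosiglitazone, against 7.73, 6.74, 7.20, 7.35 and 7.63 in lean controls. Rosiglitazone array 2 reached the lean range, and the difference was -1.71 (SE 0.30, limma adjusted p = 0.00135). Lrrc3b, a leucine-rich repeat protein, differed by -1.39 (SE 0.21), and Capn6, a calpain that lacks protease activity, by -1.30 (SE 0.22). Angptl2, a secreted angiopoietin-like protein, and Sec14l5 stood at -1.46 and -1.36. Without 1 of rosiglitazone arrays 3, 4 and 5 and lean control arrays 1, 4 and 5 neither was called, and Sec14l5 was not called without rosiglitazone array 1 either (limma adjusted p from 0.0532 to 0.0762 for Angptl2 and from 0.0725 to 0.149 for Sec14l5).

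Type I and type III collagen genes fell. Of 9 measured fibrillar collagens, 5 were called lower (55.6%, against 1.83% of all genes) and none higher, with a median log2 fold change of -0.54. Col3a1, which forms thin collagen fibrils, read 6.08, 7.14, 6.54, 6.92 and 5.97 with rosiglitazone, against 7.90, 7.91, 7.80, 7.72 and 8.07 in lean controls. The lean arrays were tightly grouped and all above the rosiglitazone arrays, and the difference was -1.35 (SE 0.19, limma adjusted p = 0.00013). Col1a1 and Col1a2, the chains of type I collagen, averaged 5.55 ± 0.62 and 5.75 ± 0.36 in rosiglitazone muscle, against 6.87 ± 0.28 and 6.98 ± 0.25 in lean control muscle (SD, n = 5 each). Their differences were -1.32 (SE 0.29) and -1.23 (SE 0.24), with limma adjusted p of 0.0109 and 0.00414. Col5a2, which sets the width of type I fibrils, fell by 0.54 (SE 0.12). Col24a1 stood at -0.83 and lost its call without any 1 array other than rosiglitazone array 2 and lean control arrays 2 and 3 (limma adjusted p from 0.0503 to 0.0897).

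Other matrix genes gave fewer calls. Col15a1, a collagen that links basement membranes to fibrils, read 3.22, 4.07, 2.94, 3.31 and 3.42 with rosiglitazone, against 5.14, 4.44, 4.46, 5.15 and 4.99 in lean controls, a difference of -1.45 (SE 0.23, limma adjusted p = 0.000447). None of the 5 measured type IV chains of basement membranes was called, with Col4a1 at 0.34, Col4a2 at 0.37, Col4a6 at 0.03, Col4a5 at -0.35 and Col4a3 at -0.40. Col14a1, a fibril-associated collagen, fell by 0.87 (SE 0.19). Col6a1 stood at -0.63 (limma adjusted p = 0.0169). It lost its call without rosiglitazone array 1 or 4 or lean control array 1 (limma adjusted p from 0.0514 to 0.0584). Of 9 small leucine-rich proteoglycans, which bind collagen fibrils, 3 were called lower (33.3%, against 1.83% of all genes), with a median of -0.56. The other 6 were not called and ran from Aspn at -0.65 and Fmod at -0.58 to Omd at 0.15. Dcn, decorin, which coats collagen fibrils, read 7.44, 7.62, 7.92, 7.61 and 7.58 with rosiglitazone, against 8.46, 8.41, 8.46, 8.34 and 8.15 in lean controls. It did not overlap and differed by -0.73 (SE 0.11, limma adjusted p = 0.000398). Ogn, osteoglycin, differed by -0.56 (SE 0.11). Lum, lumican, stood at -1.18 and lost its call without any 1 array other than rosiglitazone array 4 and lean control array 2 (limma adjusted p from 0.0593 to 0.0939). None of 9 laminin and nidogen genes was called.

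**Figure D3:**
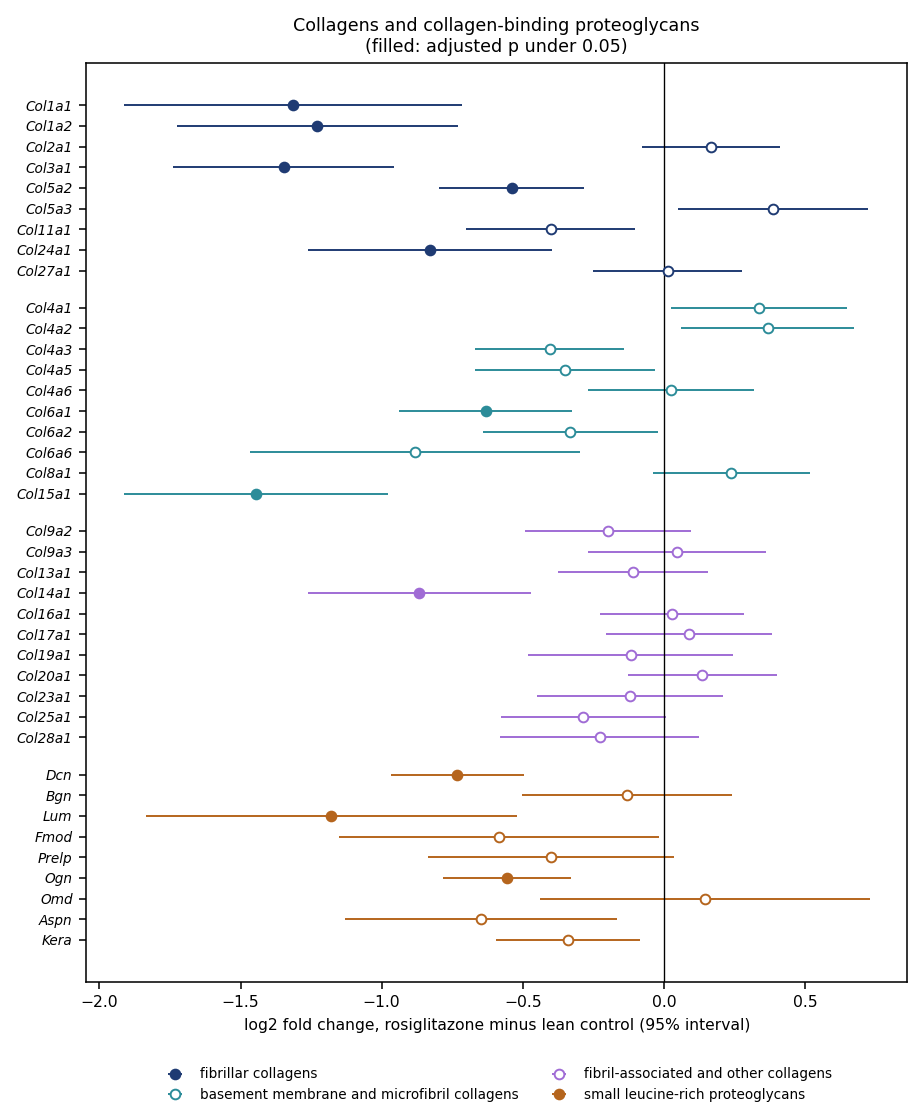
Log2 fold change (rosiglitazone minus lean control, 95% interval) of 30 collagen genes in 3 classes and 9 small leucine-rich proteoglycans, with filled points for genes called by limma. Filled points all lie left of 0, and Col15a1, Col3a1, Col1a1, Col1a2 and Lum are the lowest.

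Collagen processing and turnover gave few calls. Among 20 folding and crosslinking genes 1 was called in each direction, against 1.67% of all genes higher and 1.83% lower. Plod2, which hydroxylates lysines for crosslinks, differed by -0.82 (SE 0.17, limma adjusted p = 0.00531). Lox, lysyl oxidase, which makes the crosslinks, went the other way, reading 3.27, 3.0, 5.06, 4.39 and 4.35 in rosiglitazone muscle, against 2.78, 2.79, 3.0, 2.56 and 2.80 in lean controls. Its rosiglitazone arrays were split, with array 2 level with the highest lean one, and its call (1.23, limma adjusted p = 0.017) was lost without rosiglitazone array 3 (0.0543) or 5 (0.0521). Of 21 matrix proteases and inhibitors only Timp4 was called (4.76%, against 1.67% of all genes higher). Timp4, an inhibitor of metalloproteinases, was higher by 0.54 (SE 0.11). Sparc, a collagen-binding glycoprotein, stood at -0.16 and was not called. Of 14 genes of the TGF-beta pathway and its targets 2 were called higher (14.3%, against 1.67% of all genes). Ccn1, a secreted matrix signal, rose by 0.88 (SE 0.20). That call was lost without rosiglitazone array 5 or lean control array 5 (limma adjusted p = 0.0517 and 0.051). Tgfbr3, the other call, stood at 0.50 (limma adjusted p = 0.0424). It was lost without any 1 array other than lean control array 4 (limma adjusted p from 0.0529 to 0.11).

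Fibroblast markers were called lower more often than higher. Of 13 measured, 6 were called lower (Dcn, Lum, Fap, Dpt, Mfap5 and Pdgfra) and 1 higher, against 1.83% and 1.67% of all genes, with a median of -0.58, and the mean of the list lay at 4.22 to 4.68 on the rosiglitazone arrays, against 4.75 to 5.05 on the lean control arrays. Fap, a protease of activated fibroblasts, differed by -1.11 (SE 0.25), and Dpt, dermatopontin, by -0.55 (SE 0.13, limma adjusted p = 0.0566 without rosiglitazone array 1). Dcn, Lum and Mfap5, an elastic microfibril protein, are also members of the matrix lists. Mfap5, at -0.76, lost its call without any 1 array other than rosiglitazone arrays 2 and 3 and lean control array 5 (limma adjusted p from 0.0534 to 0.104). Pdgfra, a growth factor receptor of fibroblasts, at -0.58, lost its call without rosiglitazone array 1 or 2 or lean control array 3 (0.0633 to 0.0735). Thy1 at -0.11, Pi16 at 0.09, S100a4 at -0.10 and Tcf21 at -0.04 were not called. Vim, the intermediate filament vimentin shared by endothelium and fibroblasts, went up. It read 8.83, 8.91, 8.85, 8.90 and 8.59 with rosiglitazone, against 7.92, 8.13, 8.29, 8.08 and 8.0 in lean controls, a difference of 0.73 (SE 0.11, limma adjusted p = 0.000259). The part of fibroblast content in the fall of the collagens was not tested. None of 16 macrophage and leukocyte markers and none of 6 nerve markers was called. Of 8 tendon markers Thbs4, thrombospondin 4, alone was called, at -0.82 (12.5%, against 1.83% of all genes lower). Its limma adjusted p was 0.038, and 0.0532 to 0.101 without any 1 array other than rosiglitazone array 3 and lean control array 2.

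PPAR targets of muscle gave 3 higher calls and 1 lower among 24, against 1.67% and 1.83% of all genes. Besides Fabp4, Ucp2, an uncoupling protein of the inner mitochondrial membrane, read 5.72, 5.51, 5.60, 5.53 and 5.92 with rosiglitazone, against 4.28, 4.63, 4.68, 4.28 and 4.2 in lean controls. It rose by 1.24 (SE 0.15, limma adjusted p = 2.87e-05), with no overlap. Cd36, the fatty acid translocase, read 10.13, 10.17, 10.27, 10.10 and 10.18 with rosiglitazone, against 9.08, 9.79, 9.58, 9.54 and 9.44 in lean controls. It was higher on every rosiglitazone array, by 0.68 (SE 0.12, limma adjusted p = 0.00135). Vldlr, the receptor for very low density lipoprotein, differed by -0.42 (SE 0.09).

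The fasting-responsive targets varied too much within the groups for a call. Angptl4, a secreted inhibitor of lipoprotein lipase, read 5.30, 4.85, 6.14, 5.57 and 5.96 in rosiglitazone muscle, against 2.49, 5.35, 5.32, 2.15 and 3.25 in lean controls. The lean arrays fell into a high pair, arrays 2 and 3, and 3 low ones, and the limma adjusted p was 0.102. It was 0.04 without lean control array 2 and 0.0446 without lean control array 3. Pdk4, which shuts down glucose oxidation, averaged 10.64 ± 0.34 with rosiglitazone and 9.85 ± 0.68 in lean controls (SD, n = 5 each, limma adjusted p = 0.0836). It passed without rosiglitazone array 2 (0.0437), lean control array 2 (0.0247) or lean control array 3 (0.0332). Ucp3, the muscle uncoupling protein, overlapped widely at 0.96 (SE 0.60). The clock gene Bmal1 split the lean arrays the same way, at 6.35 and 5.33 on arrays 2 and 3 and 3.10 to 3.29 on the others, and Dbp, an output gene of the clock, ran opposite at 6.43 and 6.89, against 8.61 to 9.14. None of 11 core clock genes was called. The clock score, which includes Bmal1, averaged -0.29 ± 1.12 with rosiglitazone and -1.33 ± 1.03 in lean controls (SD, n = 5 each). It ran from -1.85 to 0.87 and from -2.40 to -0.02, so that it overlapped but was uneven between the groups compared. The part of the time of day in the gene values was not tested beyond this score as a covariate. With that covariate 308 genes were called, against 510 without it, and Ucp3 stood at -0.075. That covariate ended the calls of Mt2A (limma adjusted p = 0.0551), Col5a2 (0.0603), Col14a1 (0.051), Fap (0.0591) and Tek (0.0502), among others.

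Genes of fuel oxidation gave few calls. Of 25 fatty acid uptake and oxidation genes Cd36 alone was called (4%, against 1.67% of all genes higher), and the median was -0.05. Among 43 subunits of oxidative phosphorylation 2 were called lower (4.65%, against 1.83% of all genes), and 35 had a negative difference at a median of -0.10, where 50.5% of all genes had a negative one. These subunits are bright, and the 4979 genes with a mean of at least 4 had a median difference of -0.038. The part of brightness in the lower values of the subunits was not tested. Ndufs4, a complex I subunit, read 7.69, 7.70, 7.82, 7.55 and 7.72 with rosiglitazone, against 8.08, 8.13, 8.14, 8.18 and 8.10 in lean controls. The small difference of -0.43 (SE 0.08, limma adjusted p = 0.00286) was larger than the spread of either group. Ndufb6, the other called subunit, stood at -0.45 (limma adjusted p = 0.0404). It lost its call without any 1 array other than rosiglitazone arrays 1 and 3 (limma adjusted p from 0.0574 to 0.119). None of 13 citric acid cycle genes was called. Dlat, a pyruvate dehydrogenase subunit outside that list, and Opa1, which fuses inner mitochondrial membranes, were named after their values were seen, at -0.39 (SE 0.08) and -0.37 (SE 0.09). Ppargc1a, the coactivator of mitochondrial growth, stood at -0.11 (SE 0.14), with a 95% interval that spans 0.

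Ketone body and branched-chain amino acid enzymes gave 4 lower calls of 22 (18.2%, against 1.83% of all genes) and none higher, with a median of -0.13. Oxct1, which activates acetoacetate in the mitochondrion, read 9.03, 8.95, 8.88, 8.92 and 8.81 with rosiglitazone, against 9.17, 9.48, 9.37, 9.61 and 9.61 in lean controls, a difference of -0.53 (SE 0.11, limma adjusted p = 0.00501). Bdh1, which oxidises hydroxybutyrate, read 2.91, 2.52, 2.03, 2.97 and 3.13 with rosiglitazone, against 4.0, 4.16, 2.91, 3.99 and 4.2 in lean controls. Lean array 3 lay among the rosiglitazone values, and the difference was -1.14 (SE 0.24, limma adjusted p = 0.00734). The rosiglitazone values lay near the array medians, which leaves the size of the fall uncertain. Hibch and Aldh6a1, late enzymes of valine breakdown, differed by -0.49 (SE 0.09) and -0.38 (SE 0.08), and neither overlapped. The first enzymes of the pathway, Bcat2 at 0.49 and Bckdha at -0.0013, were not called.

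Among 25 antioxidant and xenobiotic genes 3 were called higher, all glutathione transferases, and 2 lower, against 1.67% and 1.83% of all genes. Mgst1, a membrane-bound glutathione transferase, read 5.69, 5.88, 5.44, 5.44 and 5.18 with rosiglitazone, against 4.82, 3.79, 4.04, 3.87 and 4.11 in lean controls, a difference of 1.40 (SE 0.15, limma adjusted p = 6.3e-06). Gstm2 and Gstp1, soluble glutathione transferases, rose by 1.25 (SE 0.15) and 0.71 (SE 0.14). Cat, catalase, and Gpx1, glutathione peroxidase, stood at -0.41 (SE 0.11) and -0.58 (SE 0.16), and were not called without rosiglitazone array 1 or 4 or lean control array 1 or 5. Cat was also lost without rosiglitazone array 2 or 5 or lean control array 2 or 3, and Gpx1 without rosiglitazone array 3 or lean control array 4 (limma adjusted p from 0.0672 to 0.111 for Cat and from 0.0698 to 0.128 for Gpx1). Nqo1 and Hmox1, common stress-response genes, stood at 0.02 and 0.24 and were not called. Other glutathione transferases did not pass the test, with Gsta1 at -0.56, Gsta4 at -0.61 and Mgst3 at -0.20, and neither did Gpx3, at 0.36.

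Iron genes were looked at after their values had been seen, and of 17 measured 3 were called higher and 1 lower, against 1.67% and 1.83% of all genes. Slc39a8, a zinc and iron importer, read 3.86, 4.52, 3.59, 3.25 and 3.56 with rosiglitazone, against 2.08, 2.06, 1.63, 3.03 and 1.75 in lean controls, a difference of 1.65 (SE 0.25, limma adjusted p = 0.000286). Its lean values lay near or under the array medians, which leaves the size of its rise uncertain. Slc40a1, the iron exporter ferroportin, differed by -0.91 (SE 0.18). Heph was higher by 0.53 (SE 0.12), and lost its call without lean control array 1 (limma adjusted p = 0.0559). Ftl1, the ferritin light chain, rose by 0.87 (SE 0.16), but it has near-identical copies in the rat whose probes the array may not tell apart. Tfrc, the transferrin receptor, read 5.49, 5.86, 5.55, 5.86 and 6.27 with rosiglitazone, against 7.08, 6.08, 7.09, 6.85 and 6.85 in lean controls, and missed the threshold at -0.98 (limma adjusted p = 0.0734). Without lean control array 2 it passed (0.0362). Of 5 erythroid markers 1 was called higher (20%, against 1.67% of all genes), Slc4a1, the anion exchanger of red cells, by 1.06 (SE 0.24). The part of blood in the samples was not tested.

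Atrophy and autophagy genes gave 4 higher calls of 16 (25%, against 1.67% of all genes) and none lower. With the clock score as a covariate none of these 4 was called (limma adjusted p from 0.0522 to 0.0825). Mt2A, a metallothionein, read 4.34, 3.37, 5.00, 3.55 and 5.49 with rosiglitazone, against 3.15, 3.09, 2.86, 2.11 and 1.82 in lean controls, a difference of 1.74 (SE 0.39, limma adjusted p = 0.0123). Foxo1, the transcription factor of the fasting response, Map1lc3a, an autophagosome protein, and Ctsl, a lysosomal protease, stood at 1.02, 0.68 and 0.66. Their calls were lost in 7, 6 and 6 of the 10 fits without 1 array, each time including those without rosiglitazone array 3 or 5 and lean control array 4 or 5 (limma adjusted p from 0.0647 to 0.115 for Foxo1, from 0.0539 to 0.0649 for Map1lc3a and from 0.0612 to 0.0851 for Ctsl). The ubiquitin ligases Fbxo32 and Trim63 stood at 0.60 and 0.65 and were not called. Foxo1 was also the only call among 19 insulin signalling genes (5.26%, against 1.67% of all genes higher). Slc2a4, the insulin-regulated glucose transporter GLUT4, stood at 0.17 (SE 0.13, limma adjusted p = 0.607), and none of 14 glycolysis and glycogen genes was called.

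Fibre type genes gave no call among 10 slow and 6 fast members. Of 30 ribosomal protein genes 25 had a positive difference, at a median of 0.15, where 50.5% of all genes had a negative one. Only Rplp2 and Rpl10 were called, at 0.41 and 0.48 (6.67%, against 1.67% of all genes higher). Rplp2 was not called without rosiglitazone array 5 or lean control array 5 (limma adjusted p = 0.0533 and 0.0532), and Rpl10 without rosiglitazone array 1, 2 or 3 or lean control array 1 or 4 (0.051 to 0.0867). Of 18 interferon response genes, Rsad2, an antiviral enzyme, alone was called (5.56%, against 1.67% of all genes higher). It rose by 1.16 (SE 0.21, limma adjusted p = 0.00187). Outside the lists, Tnfsf10, the death ligand TRAIL, rose by 1.86 (SE 0.22) and Kctd12b by 1.70 (SE 0.17). Prodh, the first enzyme of proline breakdown, was named after its values were seen. It read 6.58, 6.30, 6.49, 6.37 and 6.37 with rosiglitazone, against 4.80, 6.07, 5.42, 4.62 and 4.68 in lean controls, a difference of 1.30 (SE 0.24, limma adjusted p = 0.00256).

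**Figure D4:**
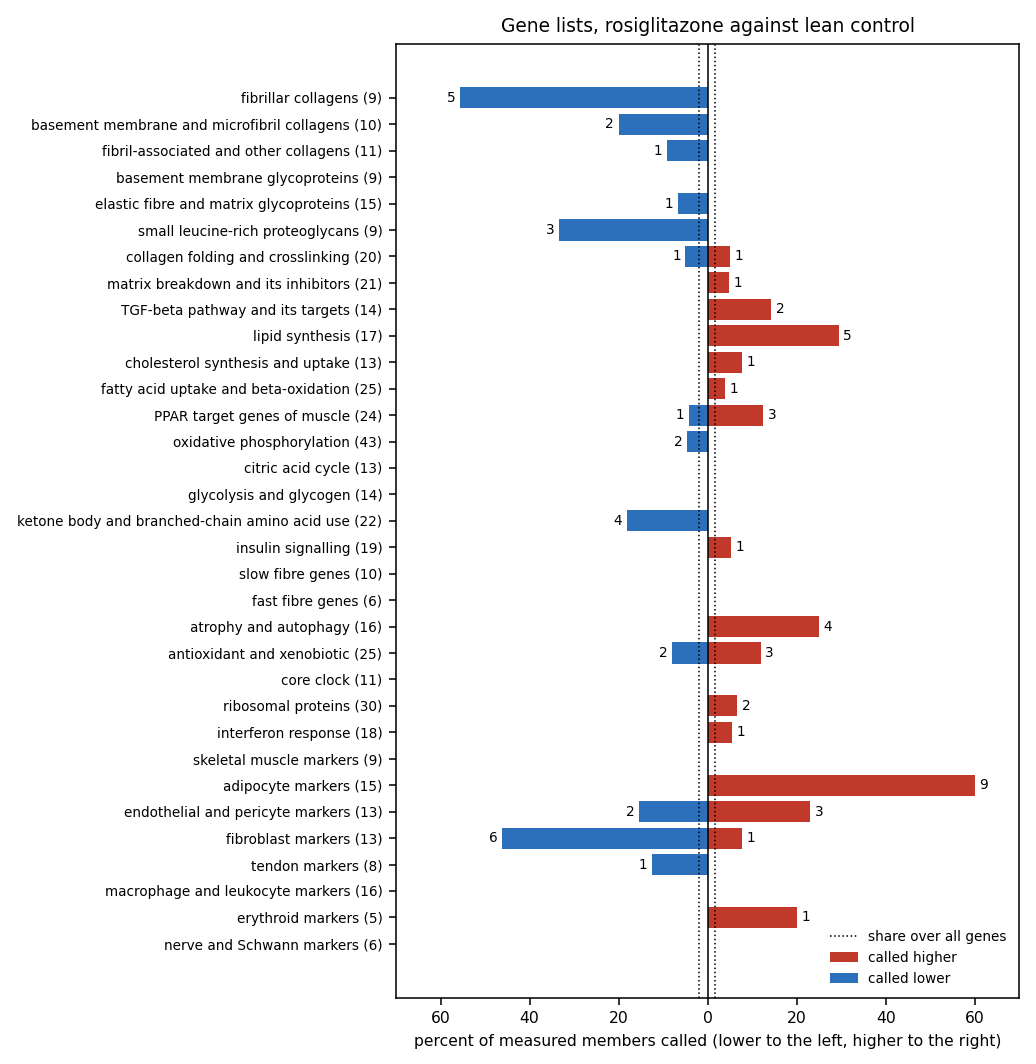
Percent of the measured members of 33 gene lists (number measured in brackets) called higher (red, to the right) or lower (blue, to the left) in rosiglitazone against lean control, with the number called beside each bar and the share over all genes dotted. The list of 2 smooth muscle markers is left out; adipocyte markers reach furthest to the right and fibrillar collagens furthest to the left.

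The untreated obese rats allow the values of each gene to be set beside a further group, in comparisons that share arrays with the one above. Over all genes, 1.94% were called in rosiglitazone against obese muscle (1.46% higher, 0.474% lower), and 0.00687%, 1 gene that was lower, in obese against lean control muscle. Some genes stood apart in rosiglitazone muscle. Rbp7 averaged 8.66 ± 0.24 with rosiglitazone, 4.49 ± 0.77 in obese and 4.27 ± 0.41 in lean control muscle (SD, n = 5 each). Aqp1 averaged 4.68 ± 0.23 with rosiglitazone, 6.94 ± 0.17 in obese and 6.87 ± 0.15 in lean control muscle. Ucp2 averaged 5.66 ± 0.17 with rosiglitazone, 4.45 ± 0.39 in obese and 4.41 ± 0.22 in lean control muscle. For all 3 the difference of rosiglitazone from obese was also past the threshold (4.17, -2.26 and 1.21; limma adjusted p = 3.54e-09, 2.21e-11 and 4.3e-05).

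Other genes lay between or beside the obese values. Col3a1 averaged 6.53 ± 0.51 with rosiglitazone, 7.26 ± 0.31 in obese and 7.88 ± 0.13 in lean control muscle, and differed from obese by -0.73 (SE 0.19, limma adjusted p = 0.0439). Dcn averaged 7.63 ± 0.18 with rosiglitazone, 7.87 ± 0.20 in obese and 8.36 ± 0.13 in lean control muscle, and differed from obese by -0.24 (SE 0.11, limma adjusted p = 0.356). Aldh6a1 averaged 8.34 ± 0.09 with rosiglitazone, 8.31 ± 0.09 in obese and 8.72 ± 0.06 in lean control muscle. Oxct1 averaged 8.92 ± 0.08 with rosiglitazone, 8.98 ± 0.19 in obese and 9.45 ± 0.18 in lean control muscle. Bdh1 averaged 2.71 ± 0.44 with rosiglitazone, 2.28 ± 0.46 in obese and 3.85 ± 0.54 in lean control muscle. For these 3 enzymes the difference of rosiglitazone from obese was 0.02, -0.06 and 0.43, none past the threshold (limma adjusted p = 0.946, 0.859 and 0.46). Bdh1 was the gene called in obese against lean control, at -1.57 (limma adjusted p = 0.0172). Its obese mean lay under the medians of the obese arrays (2.5 to 2.54), which leaves the size of that difference uncertain. Thrsp stood lowest in obese muscle, at 3.12 ± 0.24, against 6.66 ± 0.64 with rosiglitazone and 4.05 ± 0.19 in lean controls.

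**Figure D5:**
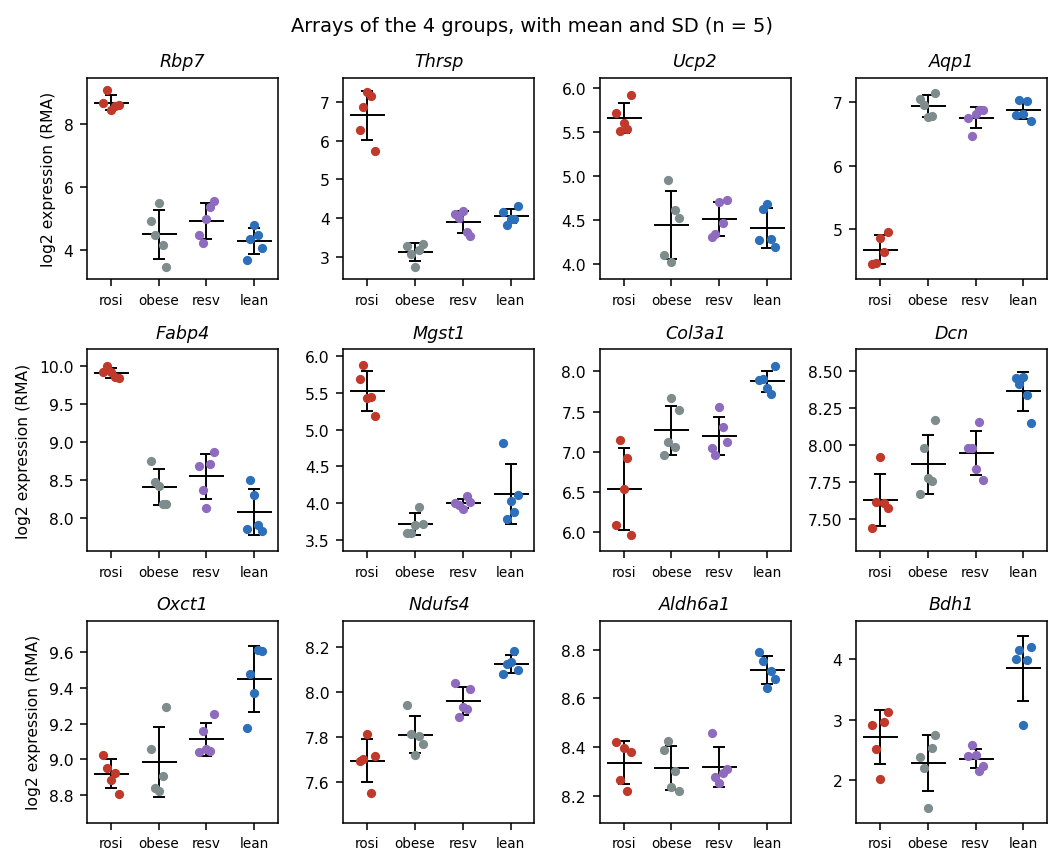
Log2 expression (RMA) of 12 genes on the arrays of the rosiglitazone (red), obese (grey), resveratrol (purple) and lean control (blue) groups, 5 each, with mean and SD in black. Rbp7, Thrsp, Ucp2, Aqp1, Fabp4 and Mgst1 set the rosiglitazone arrays apart from the other groups, whereas for Dcn, Oxct1, Ndufs4, Aldh6a1 and Bdh1 the obese and resveratrol means also lie below the lean control mean.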

How the data were processed

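RNA of red tibialis anterior was hybridised to Affymetrix Rat Gene 2.1 ST arrays, 5 per group. The deposited values are log2 values made by the authors with RMA (version and annotation release not given in the sources used here), which corrects background, equalises the arrays' distributions and sums up the probes of a row. This can narrow large differences and holds dim genes near a floor. Of 36685 rows, 14824 carried 1 symbol, and the brightest row of each gene was kept, including 234 genes with more than 1 row; 829 rows with several symbols and 21032 with none were left out of the main comparison. A mean per group was fitted over all 20 arrays with limma 3.58.1 in R 4.3.3, the contrast was taken as rosiglitazone minus lean control, and two-sided p-values were adjusted by Benjamini-Hochberg over 14557 genes, with a gene called at an adjusted p under 0.05. Residual degrees of freedom were 16 and prior ones 6.35, and a log2 fold change had a median 95% interval of 0.286 to either side. With 5 arrays a group, this sets the precision.

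The members, the gene lists and the naming rule were chosen with earlier results of these data known. The rule took the 12 highest and 12 lowest called genes with a mean of at least 3 in a group, up to 6 called members per list and a standing set, which gave 85 genes; Fasn had no row of its own symbol. A further 25 genes and the LXR, iron and wider endothelial lists were chosen after values were seen. Other list members were named with their values where they were not called. On simulated data with 200 of 14557 genes changed, 59.6% of 1.5-fold and 94.7% of 2-fold changes were recovered for this comparison, and 4.73% of calls were false. Alternatives were a replicate block, trended robust moderation, brighter genes, averaged rows, all rows, the 2 groups alone, array weights, median centring, quantile normalisation, clock and adipocyte covariates and leaving out each array. Promoter windows came from RefSeq, GRCr8, and 83 of the 110 named genes had one. Python 3.11.15 (pandas 2.3.3, matplotlib 3.10.9) drew the figures.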

Additional observations from a re-analysis of the deposited data

Results flagged for a closer look

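In 11 of 224 gene and group combinations checked, 1 array lay far from the other 4 (gap over range above Dixon's limit of 0.71). Chance flags about 1 in 20 groups. On rosiglitazone array 2, Angptl2 read 5.38, Tek 6.49 and Fap 4.0, each the highest of its group. Rosiglitazone array 5 was lowest for Vim, at 8.59, and highest for Tagln, an actin-binding protein of smooth muscle, at 6.14. Rosiglitazone array 3 was lowest for Tgfbr3 at 5.64 and for Pdk1 at 5.85, and rosiglitazone array 1 highest for Clec1a at 5.98. On the lean control side, Bdh1 read 2.91 on array 3, Tfrc 6.08 on array 2 and Gpihbp1 3.99 on array 5, each the lowest of its group. In the fit over every row, 110 rows with several symbols or none were called higher and 117 lower in rosiglitazone against lean control (limma, adjusted p under 0.05); they cannot be given to a single gene.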

How the results depend on the processing

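With all rows tested together, 318 of the genes were called (160 higher, 158 lower), and with brighter genes only, 458 were called lower of 722. The clock score as a covariate gave 308 calls (146 lower) and put Ucp3 at -0.075 and Bmal1, itself in the score, at -0.12. The adipocyte marker score as a covariate gave 6 calls (4 higher, 2 lower); its values do not overlap between the groups, so that it nearly stands for the group. In that fit Adipoq stood at -0.32, Angptl2 0.48, Sec14l5 0.66, Capn6 0.45, Sparc 0.084, Lox -0.51, Lep -0.47, Cidec -0.013, Pdk4 -0.84, Angptl4 -1.24, Ucp3 -2.25, Slc2a4 -0.037, Bdh1 0.057, Dbp 1.95, Bmal1 -2.61, Foxo1 -0.81, Ctsl -0.00027, Plat -0.015, Fkbp5 -0.64, Cidea -0.64 and Pnpla2 -0.59, each opposite in sign to its reported value. Adipoq, Lep, Cidec, Cidea and Pnpla2 are in the score. Leaving out 1 array gave 325 to 478 calls, 167 to 240 higher and 152 to 241 lower. With the replicate number as a block, 385 genes were called (371 of the 510), but the labels do not say that the numbers pair rats, same-numbered deviations correlated at -0.15 to 0.043, and no array correlated best with its own number. Median centring gave 509 calls with 40.3% higher, against 47.6%. Of 100 named genes that were called, 66 kept the call in every fit without 1 array, and 6 (Cd300lg, Ceacam1, Elovl6, Aqp1, Ace and Mgst1) in every setting run.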
